A study of Homo sapiens with 6 samples.

Results

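The total RNA of 2 colorectal cancer (CRC) cell lines was compared gene by gene, as the Input labelled SW480 minus the Input labelled DLD-1. SW480 and DLD-1 are established epithelial lines grown from human colorectal tumours. Both were wild type and untreated by their labels, and both were grown in DMEM with fetal bovine serum. They carried no transgene and no knockdown. The study sequenced 6 libraries, namely 1 Input, 1 NAT10 immunoprecipitate (RIP) and 1 immunoprecipitate of acetylated RNA (acRIP) in each line, to find transcripts bound by the acetyltransferase NAT10. The Input is the RNA taken before immunoprecipitation, and it was used here as a transcriptome of each line. Each line had 1 Input library, so no test between lines was possible and every difference compares 2 libraries.

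The Input of each line was listed in 2 tables, the RIP table and the acRIP table, as FPKM, a fragment count scaled to transcript length and to the mapped fragments of the library. The difference is log2(FPKM + 1) in the Input labelled SW480 minus that in the Input labelled DLD-1, a scale that understates the difference of low genes. A gene counted as measured if it was protein-coding and its mean over the 4 Input columns was at least 1 FPKM. Of 58302 genes listed, 19847 were protein-coding and 11515 of these were measured. Genes were kept if the difference had the same sign in both tables, which held for 9882 of the 11515 (85.8%). Of the kept genes 4709 were higher in the Input labelled SW480 and 5173 in the one labelled DLD-1. Wherever a pair of values follows, the first is from the RIP table and the second from the acRIP table.

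Epithelial and mesenchymal programmes are the best known axis along which CRC lines differ. Epithelial cells are joined by E-cadherin, claudins and desmosomes and express keratins and intestinal factors such as CDX2. Mesenchymal cells express vimentin and matrix genes, and the repressors ZEB1 and SNAI2 silence epithelial genes by binding E-boxes with the letters CAGGTG.

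The labels were checked against these markers first. VIM, the intermediate filament vimentin (ENSG00000026025, chromosome 10, 17228241 to 17237593 on GRCh38.p14), was at 0.077 and 0.0881 FPKM in the Input labelled SW480 and at 11.1 and 51.2 FPKM in that labelled DLD-1. ZEB1 was at 0.0764 and 0.494 against 5.13 and 4.34 FPKM. SW480 is widely described as a line that expresses vimentin and ZEB1, and DLD-1 as one that is low in both. MSH6, a mismatch repair gene that is mutated in DLD-1, was at 5.12 and 4.10 FPKM in the Input labelled SW480 and at 12.7 and 7.11 in that labelled DLD-1. The VIM and ZEB1 levels therefore went against the labels, while the RNA level of MSH6 does not show whether the gene is mutated. The labels were kept, and each Input is named by its label throughout, so a direction given for a label may not belong to that line.

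Both Inputs expressed colorectal epithelial genes. Of 11 colorectal epithelial markers, 11 were above 0 in the Input labelled SW480 and 9 in the one labelled DLD-1, in each table. EPCAM, a surface marker of epithelial cells, was at 324 and 214 FPKM in the Input labelled SW480 and at 126 and 65.0 FPKM in that labelled DLD-1. None of the fibroblast, leukocyte or erythroid markers was measured. The 9 fibroblast markers summed to between 0.731 and 3.11 FPKM per column, the 11 leukocyte markers to between 0.890 and 2.99, and the 5 erythroid markers to at most 0.338 FPKM.

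The depth of the libraries was similar. Whole reads could be recovered from the RIP table for 23494 of 23515 genes, and they summed to at least 11314490 in the Input labelled SW480 and 10769304 in the one labelled DLD-1. The most abundant RNA in 3 of the 4 columns was RN7SL2, a signal recognition particle RNA, with 18.2% to 20.2% of the FPKM sum. In the acRIP table the top RNA of the Input labelled DLD-1 was RN7SL5P with 11.2%. Protein-coding genes held 64.9% and 45.5% of the FPKM sum in the Input labelled SW480 and 65.7% and 49.0% in that labelled DLD-1, so the tables differed from each other more than the Inputs did.

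The differences in both tables followed each other closely. Across the 11515 measured genes they correlated at a Pearson r of 0.93 and a Spearman rho of 0.89, where genes are not independent replicates and both tables describe the same RNA samples by their labels. The median difference was -0.06 in the RIP table and -0.01 in the acRIP table. The SD over genes of the gap between tables was 0.393. The tables were not a replicate, since it is not stated whether the same library lies behind both. The shift of a gene from one table to the other was shared by the lines, with a Pearson r of 0.79 across genes.

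**Figure D1:**
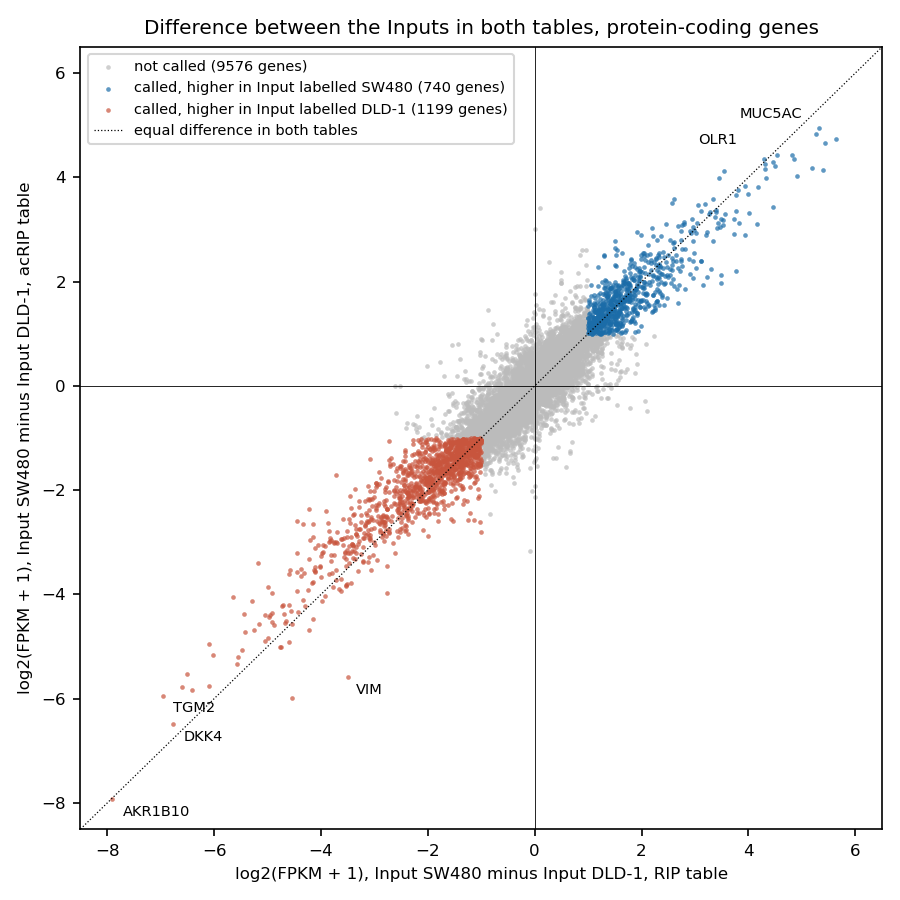
Difference in log2(FPKM + 1) between the Inputs labelled SW480 and DLD-1 in the RIP table (x axis) and the acRIP table (y axis), with 1 point for each of the 11515 measured protein-coding genes. The 740 blue and 1199 red genes were at least 2-fold apart in both tables, and VIM lies off the dotted line of equal difference because its level in the Input labelled DLD-1 differed between tables.

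A gene was called if it was at least 2-fold apart on this scale in both tables, in the same direction. In bulk RNA, fewer cells that express a gene and less of its RNA per cell cannot be told apart. Called were 740 genes that were higher in the Input labelled SW480, 6.43% of those measured, and 1199 that were higher in that labelled DLD-1, 10.4% of those measured. A difference of at least 3 (8-fold) was reached by 46 and 123 genes, and of at least 4 (16-fold) by 15 and 43. A difference of at least 5 was reached by 0 and 11 genes. Just inside the threshold 60 genes lay within 0.02 above it, and 67 genes lay within 0.02 below it, by the smaller of both differences. Of the 1928 called genes with recovered reads, all 1928 differed in the RIP table by more than the 95% interval of their counting error, which covers sampling of reads only. The call used the same values and asked for 2-fold, so this count describes the number of reads and is not support for the calls. The genes higher in the Input labelled SW480 took 8.72% and 8.31% of its protein-coding FPKM and 2.96% and 2.73% of that in the other Input. The genes higher in the Input labelled DLD-1 took 11.4% and 10.2% of its protein-coding FPKM and 2.49% and 2.1% in the other.

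The 12 leading genes higher in the Input labelled SW480 are grouped by what they are known to do, not by rank. Some are mucins or act on mucins. MUC5AC, a gel-forming mucin (ENSG00000215182, chromosome 11, 1157953 to 1201138), was at 65.5 and 46.3 FPKM there and at 0.662 and 0.535 FPKM in the Input labelled DLD-1, a difference of 5.32 and 4.95. PARM1, a mucin-like membrane protein, was at 51.3 and 38.8 against 0.355 and 0.404 FPKM. AGR2, a disulfide isomerase needed for mucin folding, was at 59.5 and 43.5 against 0.667 and 1.46 FPKM. GALNT3, which starts O-linked glycans on mucins, was at 28.3 and 21.3 against 0.0383 and 0.0395 FPKM. Levels of these 4 genes in the Input labelled SW480 were above those in the Input labelled DLD-1 in every pairing of columns. The genes were chosen by their differences in the same columns, so this adds no support.

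Others are epithelial genes. RAB25, an epithelial recycling GTPase, was at 55.5 and 25.7 FPKM in the Input labelled SW480, and at 0.134 and 0 in that labelled DLD-1. EHF, an epithelial ETS factor, was at 66.2 and 37.1 against 2.05 and 0.948 FPKM. KRT20, the keratin of differentiated intestinal cells, was at 29.2 and 20.5 against 0.0427 and 0.0501 FPKM. CD24, a surface glycoprotein of epithelial progenitors, was at 51.1 and 27.2 against 0.206 and 0.119 FPKM. KIT, a receptor tyrosine kinase, was at 18.6 and 19.4 FPKM and listed at 0 in both columns of the Input labelled DLD-1, where a count of 0 allows up to 0.0428 FPKM in the RIP table. PRR15L was likewise at 18.9 and 18.1 FPKM against 0 in both. OLR1, a receptor for oxidized lipoprotein (59.5 and 46.2 against 1.59 and 1.18 FPKM), and CRYBG1 (21.7 and 17.9 against 0.00748 and 0.00891 FPKM) complete the 12 leading genes.

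The leading genes on the other side included cytoskeletal and detoxifying genes. AKR1B10, an aldo-keto reductase that clears reactive aldehydes (ENSG00000198074, chromosome 7, 134527567 to 134541412), was at 0.344 and 0.0521 FPKM in the Input labelled SW480 and at 321 and 254 FPKM in that labelled DLD-1. Its difference of -7.90 and -7.92 was the largest of all measured genes in either direction by the smaller value. AKR1C1, a reductase of steroids, was at 0.0408 and 0.0311 against 66.9 and 36.1 FPKM. DKK4, a secreted Wnt antagonist, was listed at 0 in both columns against 108 and 88.9 FPKM. TGM2, tissue transglutaminase, was listed at 0 against 123 and 60.5 FPKM, and its count of 0 allows up to 0.081 FPKM in the RIP table.

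Actin-linking genes stood among the leading genes too. MSN, which ties actin to the membrane, was listed at 0 against 96.1 and 53.5 FPKM, and FLNC, a filamin, at 0 against 67.4 and 53.4 FPKM. KRT5, a keratin of basal and squamous epithelium, was at 0.27 and 0.212 against 114 and 54.7 FPKM. HKDC1, a hexokinase, was listed at 0 against 46.6 and 39.2 FPKM. FABP3, a fatty acid carrier, was listed at 0 against 45.7 and 36.0 FPKM, and IFITM1, an interferon-induced membrane protein, at 0 against 43.6 and 32.6 FPKM. Thus 7 of these 10 leading genes of the Input labelled DLD-1 were listed at 0 in both columns of the other Input, against 2 of 12 (KIT and PRR15L) in the reverse direction.

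**Figure D2:**
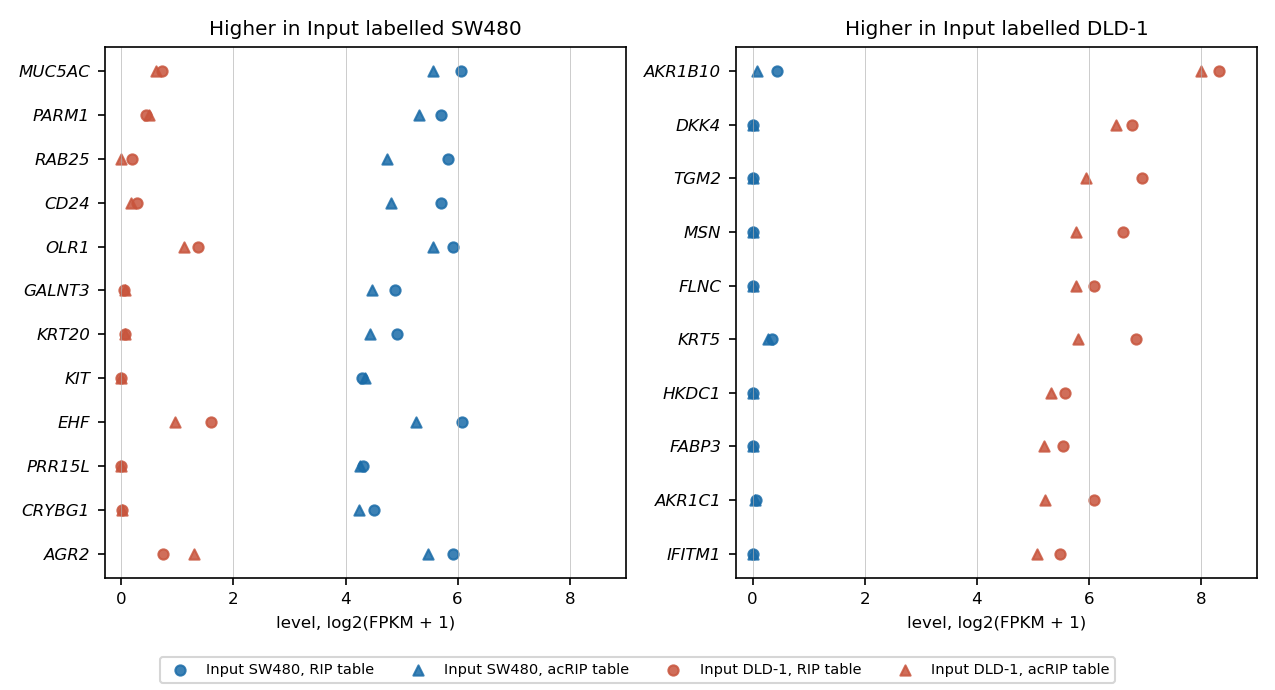
Level as log2(FPKM + 1) (x axis) of the leading genes reported here, 12 higher in the Input labelled SW480 and 10 higher in the other, with blue for the Input labelled SW480, red for that labelled DLD-1, circles for the RIP table and triangles for the acRIP table. The genes were chosen by these levels, so none has overlapping levels between the Inputs. In most genes the circle of the higher Input lies to the right of its triangle.

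Genes present in 1 Input and nearly absent from the other were counted over all measured genes. At 5 FPKM or more in both columns of the Input labelled SW480 and under 0.5 in both columns of the other Input were 42 genes, and 132 genes had the reverse pattern. Among the 42 were CFTR, the chloride channel of secretory epithelium (11.8 and 8.70 against 0.205 and 0.195 FPKM), GRHL3, an epithelial transcription factor (18.2 and 7.47 against 0.258 and 0.141 FPKM), and MACC1 (8.67 and 8.92 against 0.00809 and 0.00934 FPKM). Among the 132 were CDKN2A, which encodes the cell cycle inhibitor p16 (0.267 and 0.105 against 24.5 and 5.94 FPKM), HLTF, a DNA repair helicase (0.18 and 0.0302 against 16.9 and 15.7 FPKM), and NES, the filament protein nestin (0.0615 and 0.0164 against 6.41 and 5.42 FPKM). These 6 genes were chosen after their values were seen. Listed at 0 in both columns of the lower Input were 12 of the genes in the first direction and 69 in the second.

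The gene lists were read against the shares over all measured genes, 6.43% and 10.4%, and against the medians of -0.06 and -0.01. Members with a mean under 1 FPKM were not measured and are not counted in the shares of a list. A member near 0 in 1 Input could pass this filter only through the other Input, which raises the share called in a list. Of 34 epithelial junction and surface genes, 19 were called higher in the Input labelled SW480 and 1 in the one labelled DLD-1, with medians of 1.20 and 1.29. GRHL2, which maintains epithelial identity, was at 20.03 and 15.2 against 0.0424 and 0.0152 FPKM. CDH17, the intestinal cadherin, was at 38.7 and 33.0 against 1.85 and 1.52 FPKM, and CLDN7, a tight junction claudin, at 41.9 and 31.9 against 7.86 and 6.71 FPKM. CDH1, E-cadherin, was at 107 and 100.3 against 54.1 and 52.4 FPKM, a difference of 0.97 and 0.93 that fell short of the call. The exception was CLDN2, a pore-forming claudin, at 2.28 and 2.58 against 18.2 and 14.5 FPKM. GRHL2, RAB25 and OVOL1 were under 0.5 FPKM in both columns of the Input labelled DLD-1. They passed the filter through the other Input, which raises the share called.

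Of 30 mesenchymal and EMT genes 21 were measured. Of these 21, 14 were called higher in the Input labelled DLD-1 and 2 in that labelled SW480, with medians of -2.31 and -1.84. Besides VIM and MSN, these included AXL, a receptor tyrosine kinase (1.04 and 1.15 against 52.5 and 38.7 FPKM), S100A4, a calcium-binding protein of motile cells (7.16 and 5.67 against 197 and 122 FPKM), and SPARC, a matrix protein (0 and 0.0188 against 16.8 and 12.9 FPKM). FN1, fibronectin, was at 0.433 and 0.0682 against 11.3 and 5.42 FPKM. CAV1 (7.10 and 4.12 against 1.83 and 0.0453 FPKM) and SNAI1, a repressor of E-cadherin (8.64 and 3.83 against 1.93 and 0.877 FPKM), went the other way. The 9 fibroblast markers beside them summed to at most 3.11 FPKM in any column. VIM, ZEB1, FN1, SPARC, LOXL2 and MSN were under 0.5 FPKM in both columns of the Input labelled SW480. They passed the filter through the other Input, which raises the share called. ZEB2, TWIST1, TWIST2, SNAI2 and CDH2 were not measured, at no more than 0.275 FPKM in any Input column.

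Intestinal transcription factors were higher in the Input labelled SW480. Of 15 measured, 10 were called higher there and 0 in that labelled DLD-1, with medians of 2.06 and 1.74. SOX9, a factor of crypt cells, was at 297 and 205 against 58.7 and 44.2 FPKM, KLF5 at 176 and 117 against 41.5 and 21.0, and CDX2, the master factor of intestinal fate, at 33.4 and 21.9 against 7 and 6.59 FPKM. HNF4A, a factor of enterocytes, was kept but not called, with a difference of -0.68 and -0.58. Of 27 goblet and secretory genes only 4 were measured, MUC5AC, AGR2, TFF1 and TFF3, and all 4 were called in the same direction. MUC5AC and TFF3 were under 1 FPKM in both columns of the Input labelled DLD-1. They therefore passed the filter through the other Input, and the share called is not support. The other members, MUC2 and ATOH1 among them, had a mean under 1 FPKM. The 15 measured intestinal differentiation genes were split, with 5 called higher in the Input labelled SW480 and 3 in the one labelled DLD-1. The brush border gene CDHR5 (0.903 and 0.235 against 8.31 and 5.11 FPKM) and the intestinal phosphatase ALPI (0 and 0 against 2.29 and 2.002 FPKM) were among the 3.

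Because CAGGTG, which reads CACCTG on the other strand, is the letter pattern bound by ZEB and SNAI repressors, it was searched in the 250 bases before each RefSeq start of the measured genes. Of 1939 called genes 76.0% had such a window. The pattern was in 20.02% of 814 windows of genes higher in the Input labelled SW480, in 16.9% of 1401 windows of genes higher in that labelled DLD-1, in 16.1% of the 13663 windows of all measured genes and in 17.5% of the 35116 windows of the table. Of the 12 leading genes, 4 of 9 with a window held it on the side labelled SW480 and 1 of 7 (KRT5) on the side labelled DLD-1. The fourth of these, CD24, is not shown because its match lay at the edge of the window. A match is a description of letters and not of binding. The pattern also lay before AXL, S100A4 and ZEB1, which were called higher in the Input labelled DLD-1 and are not shown. The sites of the other leading genes are given with 12 bases on each side, from RefSeq on GRCh38.p14. Each runs 5′ to 3′ on the strand of the gene, with the pattern in capitals. CRYBG1 is shown for its pair of sites and KRT5 for the opposite direction.
RAB25, chr1:156061107-156061136, plus strand: catctctccaccCACCTGggccccaggtct
GALNT3, chr2:165794323-165794352, minus strand: atccaaggttctCACCTGgagcgctcaggt
CRYBG1, chr6:106360588-106360617, plus strand: gcgtgtctgcctCACCTGgggctcccggcg
CRYBG1, chr6:106360615-106360644, plus strand: gcgcgagcgcctCACCTGggctagcgcccc
KRT5, chr12:52520507-52520536, minus strand: cacaccactgtgCAGGTGtgaccggtgagc

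Promoters poor in CpG were more frequent among called genes than among measured genes that were not called. Fewer than 6 CpG were in 21.7% of the windows of genes higher in the Input labelled SW480, in 19.1% of those of genes higher in that labelled DLD-1 and in 11.9% of those of measured genes that were not called. TATAAA was in 9.71%, 7.495% and 5.20% of the same windows. TGANTCA, the letters of AP-1 sites, was in 4.18%, 6.14% and 4.08%, against 4.30% over all measured genes and 6.57% of the table. TGACNNNGC, the core of antioxidant response elements, was in 10.9%, 12.6% and 11.7%. Motifs were searched on both strands and may overlap, and no test was made of these shares.

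The miR-200 family, which targets ZEB1 in epithelial cells, was looked at for the same reason after its values were seen. MIR200A was at 14.4 and 18.2 FPKM in the Input labelled SW480, from at least 19 reads, and listed at 0 in both columns of that labelled DLD-1. MIR141 was at 4.32 and 0 FPKM against 0 in both, from at least 3 reads. MIR200B was at 10.1 and 0 against 8.58 and 0 FPKM, and MIR200C and MIR429 were listed at 0 in all 4 Input columns. MIR200A was thus the member above 0 in both columns of an Input. In RIP all 5 members were listed at 0 under the label SW480 and lay between 4.18 and 14.2 FPKM under the label DLD-1. These libraries were not made for short RNA, and reads over a miRNA gene may come from its precursor. Because MIR200A was the member called in both tables, its 3p mature strand is given from RefSeq on GRCh38.p14, with the seed (bases 2 to 8) in capitals.
hsa-miR-200a-3p, chr1:1167916-1167937, plus strand: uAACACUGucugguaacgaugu

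Wnt target genes, which are active in CRC lines that have lost APC function, went both ways. Of 25 measured, 10 were called higher in the Input labelled SW480 and 5 in the one labelled DLD-1, with medians of 0.10 and 0.30. LGR5, the receptor of intestinal stem cells (3.38 and 2.35 against 0.321 and 0.0352 FPKM), ASCL2 (17.2 and 11.9 against 2.72 and 2.096), AXIN2 (57.7 and 45.9 against 21.8 and 17.8) and BMP4 (322 and 171 against 38.1 and 18.8) were higher in the first. The secreted or membrane-bound Wnt antagonists DKK4, APCDD1 (0.521 and 0.183 against 46.2 and 23.8 FPKM) and NOTUM (1.18 and 1.53 against 22.8 and 14.6 FPKM), and the intracellular inhibitor NKD1, were higher in the second. MYC (103.8 and 65.3 against 123 and 72.1 FPKM) and CCND1 (146 and 114 against 165 and 131 FPKM) were not called. CTNNB1, β-catenin, was at 51.4 and 30.7 against 61.2 and 29.0 FPKM, with a sign that differed between tables. Of 30 core genes of the Wnt pathway, 25 were not called. Among the called ones the nuclear factors TCF7L2 (53.7 and 32.3 against 15.4 and 9.11 FPKM) and TCF7L1 (1.29 and 0.638 against 11.5 and 5.11 FPKM) lay on opposite sides.

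Other signalling lists were mixed. Of 23 measured TGF-beta and BMP genes, 7 were called higher in the Input labelled SW480, with the BMP target genes ID1 (81.9 and 55.0 against 15.9 and 11.02 FPKM), ID2 and ID3 beside the ligand BMP4, and 3 higher in that labelled DLD-1, among them TGFB1 (42.6 and 37.0 against 106 and 78.2 FPKM) and BMP7. Of 25 MAPK feedback and target genes, 3 and 6 were called. DUSP4 (2.51 and 1.95 against 20.2 and 10.4 FPKM), SPRY4 and the ETS factors ETV1, ETV4 and ETV5 were higher in the Input labelled DLD-1, while SPRY1 and HBEGF were higher in that labelled SW480. Of 19 receptors and ligands of growth factor families, 4 and 5 were called. ERBB3 (49.6 and 26.2 against 13.9 and 7.80 FPKM) was higher in the Input labelled SW480, and FGFR1 (6.18 and 2.73 against 18.4 and 7.25 FPKM) in that labelled DLD-1. EGFR was at a difference of 0.12 and 0.28.

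Of 23 measured p53 target genes, 8 were called higher in the Input labelled DLD-1 and 2 in that labelled SW480, with medians of -0.87 and -0.86. CDKN1A, the cell cycle inhibitor p21, was at 11.7 and 6.88 against 89.1 and 50.0 FPKM. PHLDA3 was at 0.155 and 0 against 22.3 and 16.3 FPKM, and MDM2, the ligase of p53, at 4.40 and 4.89 against 10.9 and 11.8 FPKM. PERP, which is also a desmosomal gene, and BBC3 were higher in the Input labelled SW480, PERP at 235 and 196 against 46.0 and 32.6 FPKM.

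Proliferation genes leaned the other way. Of 42 mitosis and cytokinesis genes, 14 were called higher in the Input labelled SW480 and 0 in the one labelled DLD-1, with medians of 0.83 and 0.84. MKI67, a marker of cycling cells, was at 127 and 114 against 52.2 and 43.8 FPKM, TOP2A, a topoisomerase, at 108 and 99.6 against 34.4 and 31.3 FPKM, and ECT2, an activator of cytokinesis, at 58.8 and 52.6 against 14.8 and 13.2 FPKM. Of 45 DNA replication genes, 9 were called higher in the same Input and 0 in the other, with medians of 0.55 and 0.53. CLSPN, a checkpoint adaptor, was at 17.4 and 17.9 against 2.83 and 2.49 FPKM, and RRM2, a subunit of ribonucleotide reductase, at 34.0 and 15.1 against 9.52 and 4.69 FPKM. The 4 called mismatch repair and proofreading genes, LIG1, POLE, EXO1 and POLD1, act in replication too. In 1 library a line, a different growth state at harvest cannot be told apart from a difference between the lines.

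NAT10 and the transcripts that the study followed made up a list of 15 genes with THUMPD1, which was added here. Of these, 0 were called, against 6.43% and 10.4% of all measured genes, and 13 were kept. A count of 0 among 15 genes says little beside these shares. NAT10 was at 21.2 and 12.96 FPKM in the Input labelled SW480 and at 23.03 and 16.6 FPKM in that labelled DLD-1, a difference of -0.11 and -0.33. KIF23, a kinesin of cytokinesis, was at 34.3 and 20.2 against 19.6 and 11.1 FPKM, a difference of 0.78 and 0.81. THUMPD1, a cofactor of NAT10 in the acetylation of tRNA, was at 10.0 and 8.44 against 6.02 and 3.51 FPKM. Its difference of 0.649 and 1.065 passed 2-fold in the acRIP table only. The differences of HNRNPA2B1 (0.68 and 0.70), POU2F1 (0.65 and 0.61), BIRC5 (0.45 and 0.57) and NAP1L4 (0.47 and 0.41) were positive, and those of MPP6 (-0.37 and -0.41), BCL2L1 (-0.49 and -0.35) and GSK3B (-0.15 and -0.34) negative. UBA1 was at -0.25 and -0.01, and HNRNPH3 at -0.33 and 0.14, so it was not kept.

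**Figure D3:**
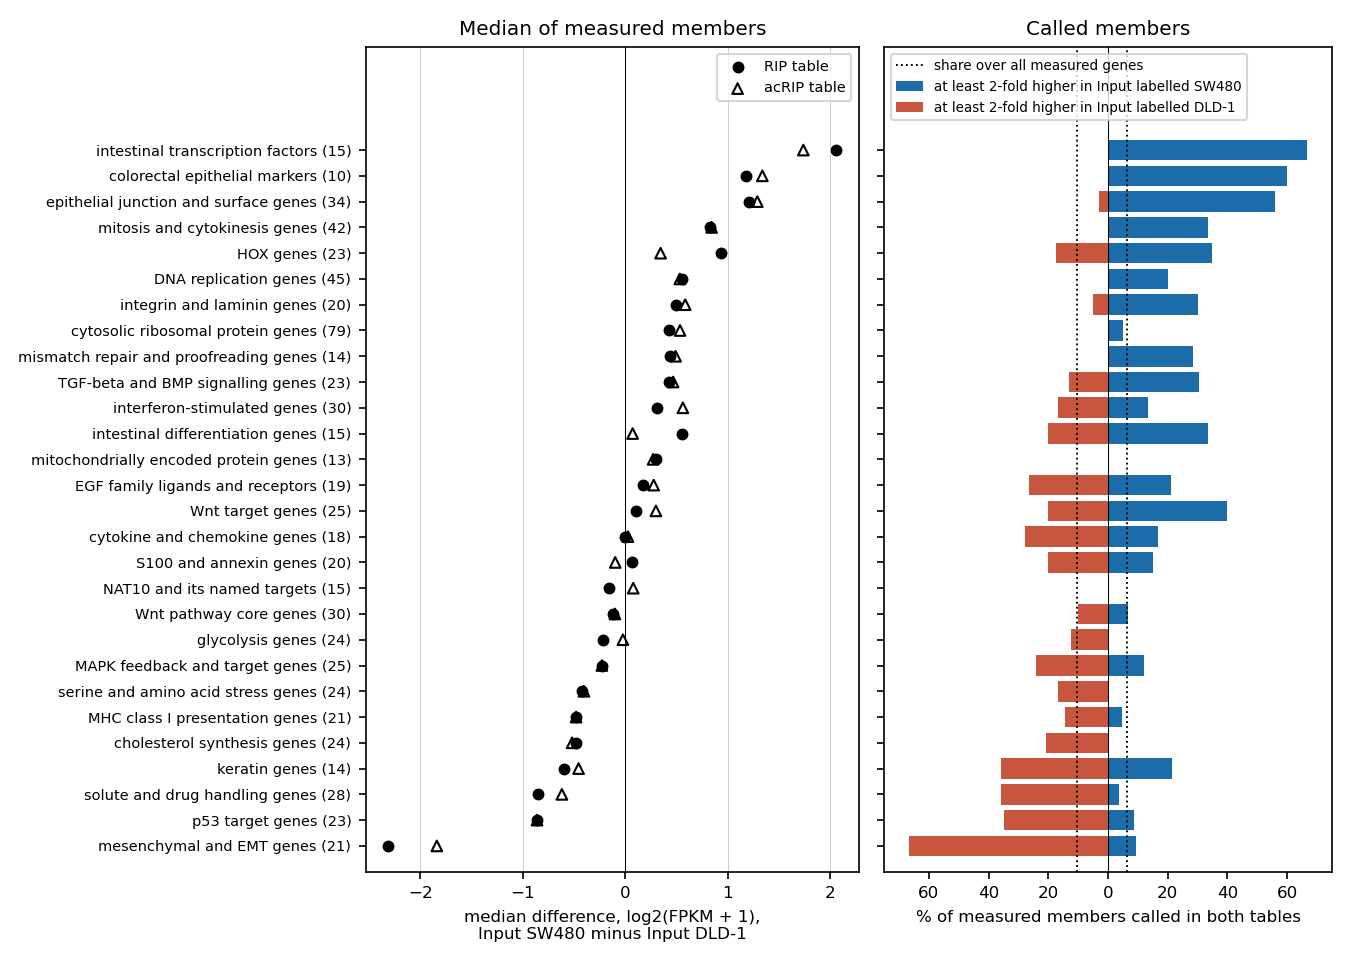
Median difference in log2(FPKM + 1), Input labelled SW480 minus Input labelled DLD-1 (left; circles for the RIP table, triangles for the acRIP table), and percent of measured members called in each direction (right), for lists with at least 10 measured members, whose number is in brackets. Dotted lines give the shares over all measured genes, 6.43% and 10.4%; intestinal transcription factors lie highest and mesenchymal and EMT genes lowest.

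Among metabolic lists, solute and drug handling genes had the largest share called higher in the Input labelled DLD-1, and glycolysis genes lay near the 10.4% of all measured genes. Of 28 measured solute and drug handling genes, 10 were called there and 1 in that labelled SW480, with medians of -0.85 and -0.62. Besides AKR1B10 and AKR1C1, these included UGT1A1, which conjugates bilirubin (0.222 and 0.407 against 20.4 and 15.3 FPKM), the export pump ABCC2 (0.322 and 0.394 against 16.8 and 12.2 FPKM), TXNRD1, a thioredoxin reductase (88.9 and 59.6 against 279.9 and 189 FPKM), and HMOX1, heme oxygenase (14.8 and 8.69 against 50.0 and 25.4 FPKM). CYP1B1 (8.61 and 7.93 against 0.226 and 0.307 FPKM) was the single gene on the other side. AKR1B10, AKR1C1, UGT1A1 and ABCC2 were under 0.5 FPKM in both columns of the Input labelled SW480. They passed the filter through the other Input, which raises the share called. Of 24 cholesterol synthesis genes, 5 were called higher in the Input labelled DLD-1 and 0 in the other, among them SQLE, the squalene epoxidase (29.9 and 17.0 against 68.7 and 42.6 FPKM). Of 24 glycolysis genes, 3 (12.5%) were called, all higher in the same Input, with medians of -0.21 and -0.02 over the list. SLC2A3, a glucose transporter, was at 0.465 and 0.28 against 45.5 and 35.6 FPKM, and ALDOC and ENO2 are the brain forms of their enzymes. Of 24 genes of serine synthesis and amino acid stress, 4 (16.7%) were called, again in that direction, with DDIT3 at 29.96 and 36.7 against 80.3 and 93.8 FPKM.

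Called immune genes lay on both sides in each list, while the list medians differed. The medians were -0.48 and -0.48 for MHC class I presentation genes and 0.31 and 0.56 for interferon-stimulated genes. Those of cytokine and chemokine genes were -0.0006 and 0.03. Of 21 MHC class I presentation genes, HLA-B (39.0 and 22.7 against 235 and 175 FPKM), HLA-F and their activator NLRC5 were called higher in the Input labelled DLD-1, and ERAP2, a peptide trimming enzyme, in that labelled SW480. Reads of HLA genes can be shared among near-identical copies, so their values are uncertain. Of 30 interferon-stimulated genes, 4 and 5 were called. OAS1 and OAS3, sensors of double-stranded RNA, were higher in the Input labelled SW480 (OAS3 at 28.0 and 17.3 against 3.34 and 2.498 FPKM), and IFITM1, BST2 (0 and 0 against 29.3 and 22.2 FPKM), IFI27, IFI35 and OAS2 in that labelled DLD-1. Of 18 cytokine and chemokine genes, 3 and 5 were called, with CXCL5 (70.9 and 58.7 against 5.84 and 4.74 FPKM) in the first and IL32 (2.48 and 0.764 against 70.8 and 21.0 FPKM) in the second direction.

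Keratins, S100 proteins and HOX genes differed member by member. Of 14 measured keratins, KRT20, KRT80 and KRT8 were called higher in the Input labelled SW480, and KRT5, KRT23, KRT81, KRT86 and KRT16 in that labelled DLD-1. KRT81 and KRT86 are near-identical hair keratins, so reads may be shared between them. KRT18 (0.81 and 0.77) and KRT19 (0.82 and 0.99), the keratins of simple epithelium, were kept but not called. S100A3 (0 and 0 against 38.0 and 16.6 FPKM) went with S100A4, whereas S100A6 (232 and 139 against 106 and 51.5 FPKM), S100A10 and S100A14 went the other way. Of 23 measured HOX genes, 8 were called higher in the Input labelled SW480, of clusters A and B, among them HOXB9 (212 and 177 against 61.5 and 35.9 FPKM) and HOXA13. Higher in that labelled DLD-1 were 4, among them HOXC6, HOXC10 and HOXD8. Of 20 integrin and laminin genes, 6 and 1 were called, with ITGA6 at 114 and 119 against 41.5 and 42.8 FPKM and ITGA7 at 2.12 and 0.969 against 10.3 and 6.21 FPKM.

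Of 79 cytosolic ribosomal protein genes, 4 were called, all higher in the Input labelled SW480, with medians of 0.43 and 0.53 over the list. Their levels depended on the table. RPS26 was at 20.8 and 107 against 7.38 and 37.4 FPKM, and many processed copies of these genes share their reads. Of 13 mitochondrially encoded protein genes, 0 were called. None of 35 cancer-testis antigen genes was measured.

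Chromosomes differed in their medians. On chromosome 20, with 321 measured genes, the medians were -0.43 and -0.45, and 62 genes (19.3%) were called higher in the Input labelled DLD-1 against 11 (3.43%) in that labelled SW480. Chromosome 7 had medians of -0.37 and -0.35 with 82 and 30 genes in the same order, chromosome 13 of -0.26 and -0.16 and chromosome X of -0.30 and -0.14. The reverse was seen on chromosome 4, with medians of 0.25 and 0.33 and 43 genes called higher in the Input labelled SW480 against 22, and on chromosome 18, with 0.24 and 0.26. The other 17 chromosomes had medians between -0.18 and 0.16. SW480 is known as an aneuploid line and DLD-1 as a near-diploid one, but copy number was not measured here.

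**Figure D4:**
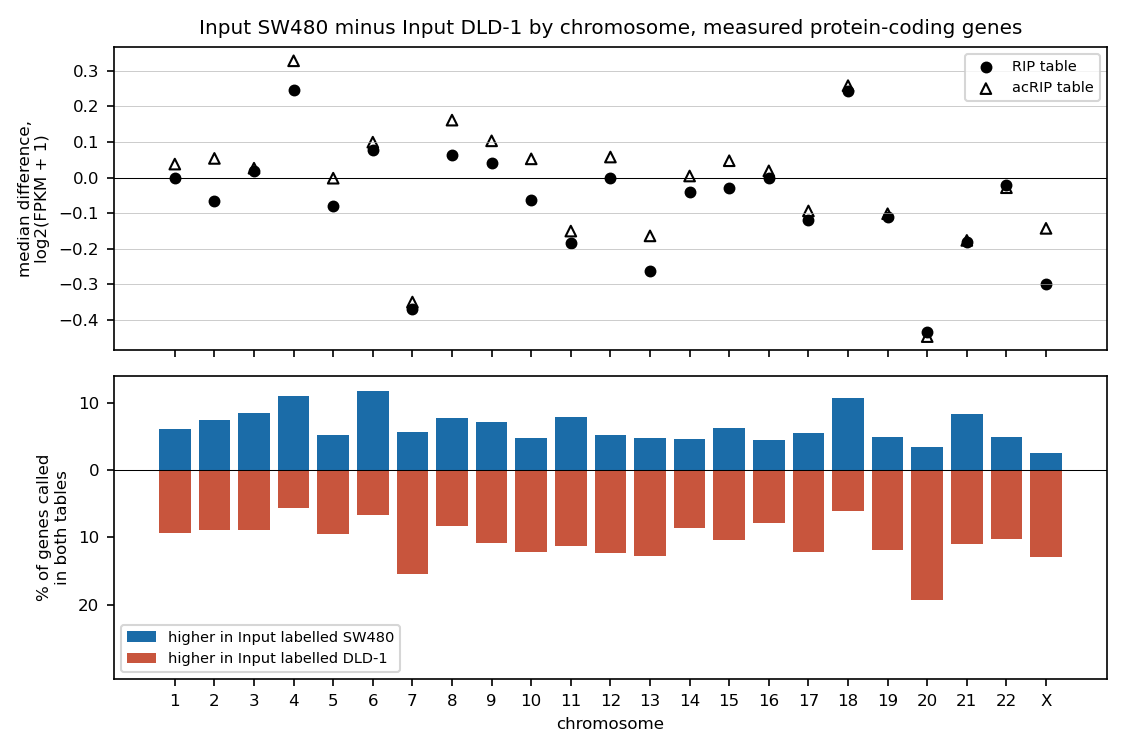
Median difference in log2(FPKM + 1), Input labelled SW480 minus Input labelled DLD-1 (top; circles for the RIP table, triangles for the acRIP table), and percent of measured genes called in each direction (bottom), by chromosome. Chromosomes 7 and 20 lie lowest and chromosomes 4 and 18 highest in both tables.

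Neighbouring genes were called together in 8 runs of at least 4 measured genes in a row. The longest held 5 histone genes on chromosome 6, between 26103933 and 26171349 on GRCh38.p14, with a median difference of 1.38 and 1.28. Its HIST1H4C was at 98.6 and 108 against 19.2 and 24.7 FPKM. HIST1H2AE, from the same histone cluster but outside that run, was at 10.1 and 1.79 against 259 and 177 FPKM, the opposite direction, and is named after its values were seen. HOXB6 to HOXB9 on chromosome 17 formed a run that was higher in the Input labelled SW480, and KRT86, KRT81, KRT5 and KRT71 on chromosome 12 one that was higher in that labelled DLD-1, with medians of -3.03 and -3.03. FAM20C, PDGFA, PRKAR1B and DNAAF5 formed such a run near the end of the short arm of chromosome 7, with medians of -2.52 and -2.26. PDGFA, a growth factor, was at 5.91 and 1.73 against 39.5 and 13.5 FPKM.

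Other RNA classes differed among themselves in their share of calls. Of 4889 measured genes of other biotypes, 3037 had the same sign in both tables, and 640 (13.1%) and 758 (15.5%) were called. Of 632 long intergenic RNAs 86 (13.6%) were higher in the Input labelled SW480 and 174 (27.5%) in the one labelled DLD-1, and of 159 miRNA genes 48 and 24. The largest class, 1698 antisense RNAs, lay near the protein-coding shares with 6.66% and 11.7%, and transcribed unprocessed pseudogenes lay below the first of them with 3.12%. These shares were not tested against each other. TRBC2, a constant segment of the T cell receptor, was listed at 0 against 76.4 and 55.3 FPKM from at least 782 reads. MIR1537 was listed at 0 against 40.1 and 51.5 FPKM, from at least 11 reads, and its count of 0 allows up to 10.1 FPKM. MIR621 (0 and 0 against 49.4 and 27.0 FPKM), AC147651.3 and RNU6-237P, a copy of the spliceosomal U6 RNA, lay in the same direction. In the reverse direction MIR2116 was at 44.5 and 57.9 FPKM against 0, followed by snoU2_19, MIR548V, AC060780.3 and MIR4730.

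The sign differed between tables, or was 0 in 1 of them, for 1633 measured genes. Their median absolute difference was 0.152 in the RIP table and 0.168 in the acRIP table, and 71 reached 1 in at least 1 table. The widest gap with opposite signs was at ANG, a secreted ribonuclease, at 3.30 and 0.826 FPKM in the Input labelled SW480 and 0 and 1.55 in that labelled DLD-1. HPCA was at 0 and 5.25 against 3.03 and 3.81 FPKM, and MXD3, a partner of MAX, at 7.54 and 11.1 against 1.04 and 13.8 FPKM. VAMP5 and PI3 followed.

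The RIP libraries of the same lines gave the differences a second look, in libraries that the choice of genes did not use. They hold RNA bound to NAT10, so they are not a second Input. Of the 740 genes called higher in the Input labelled SW480, 719 were lower in RIP under the label SW480 than under the label DLD-1, and the median RIP difference was -1.27. Of the 1199 called higher in the Input labelled DLD-1, 1170 went the opposite way in RIP, with a median of 1.62. Together 1889 of 1939 (97.4%) had opposite signs, against 79.1% of all measured genes. Across the 11515 genes the RIP difference correlated with the Input difference at a Pearson r of -0.88 in the RIP table and of -0.84 in the acRIP table. MUC5AC, for example, was at 0.13 FPKM in RIP under the label SW480 and at 14.1 FPKM under the label DLD-1, while AKR1B10 was at 338 and 2.37 FPKM.

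Among called genes, 31 had the same sign in RIP as in Input. TMEM126A was not among the 31, since its small RIP difference had the opposite sign. Its RIP libraries hardly differed where the Inputs differed widely. TMEM126A, a mitochondrial membrane protein, was at 16.9 and 7.58 FPKM in the Input labelled SW480 and listed at 0 in both columns of that labelled DLD-1, yet at 18.1 FPKM in the RIP of the former label and 19.3 FPKM in the RIP of the latter. It was named after its values were seen. The levels of the Input labelled SW480 correlated at 0.91 with the RIP library labelled DLD-1 and at 0.76 with that labelled SW480, and the Input labelled DLD-1 at 0.90 with the RIP library labelled SW480 and at 0.73 with that labelled DLD-1. In RIP, VIM (128 against 0.804 FPKM) and ZEB1 (5.27 against 0.108 FPKM) were higher under the label SW480, which is the direction described for these lines and the reverse of that in the Inputs. RIP holds NAT10-bound RNA, and the source of the crossing was not tested.

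**Figure D5:**
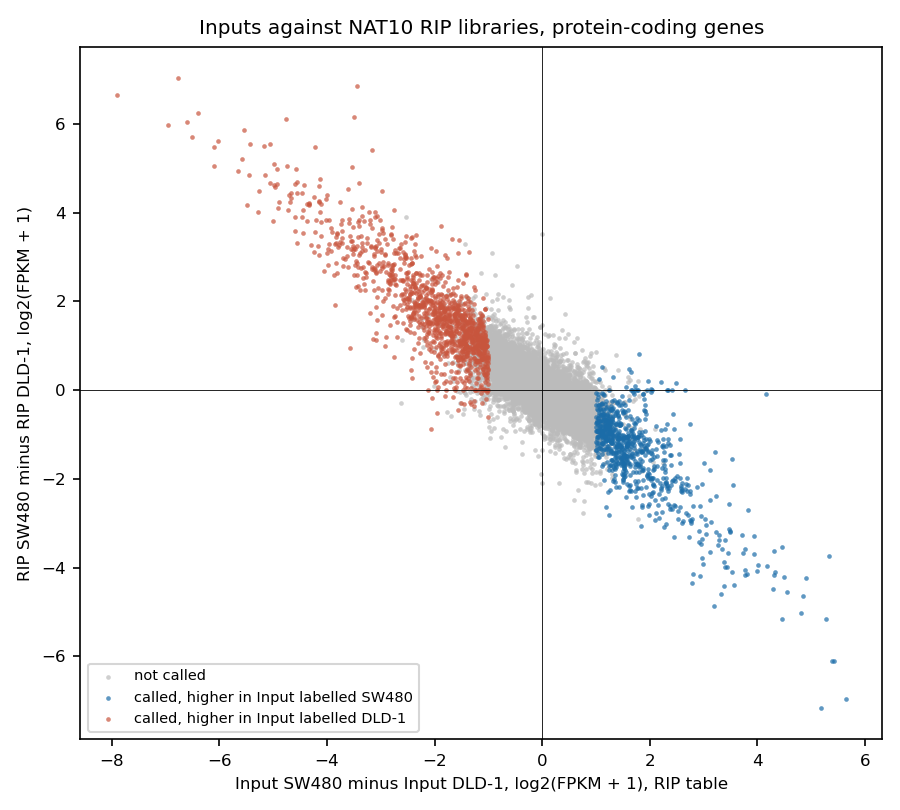
Difference in log2(FPKM + 1) between the Inputs (x axis, RIP table) and between the NAT10 RIP libraries (y axis), each as labelled SW480 minus labelled DLD-1, with 1 point for each measured protein-coding gene. Of the coloured called genes 97.4% lie at the upper left and lower right, where the signs are opposite.

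Acetylation peaks, called by the authors in each acRIP library, were set beside the calls. Of the 740 genes higher in the Input labelled SW480, 265 (35.8%) carried a peak in the list labelled SW480 and 341 (46.1%) in the one labelled DLD-1. Of the 1199 genes higher in the Input labelled DLD-1, 394 (32.9%) carried one in the list labelled SW480 and 319 (26.6%) in the one labelled DLD-1. The shares over all 11515 measured genes were 48.0% and 52.9%. A peak in 1 list only was seen in the list labelled SW480 for 44 genes of the first set and 165 of the second, and in that labelled DLD-1 for 120 and 90 genes. These were 5.95% and 13.8% of the sets against 10.6% of all measured genes, and 16.2% and 7.51% against 15.5%, so the 120 genes lay near the share over all genes. VIM had a peak only in the list labelled SW480, and EPCAM only in that labelled DLD-1, each opposite to the Input in which its level was higher. The part of transcript level in peak calling was not tested.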

How the data were processed

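SW480 and DLD-1 cells gave 1 Input, 1 NAT10 RIP and 1 acRIP library each. Reads were processed with cutadapt 2.5 and HISAT2 2.1.0, per the submitters' processing notes, which name GRCh38, hg38 and a mouse build without saying which was used where. The authors deposited FPKM per gene, with Input and RIP columns in the RIP table and Input columns in the acRIP table. The unit of the latter is not named and was read as FPKM. The authors' IP over Input ratio columns hold their own comparisons and were not used, and the deposited fold enrichment of acRIP peaks was used only to list genes with a peak.

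Differences were taken as log2(FPKM + 1) with Python 3.11.15, pandas 2.3.3 and numpy 2.4.6, and figures were drawn with matplotlib 3.10.9. With 1 library per group no p-value was computed, and counting intervals cover sampling of reads only. Whole reads were recovered from the RIP table at the smallest step that gave whole numbers within 0.003, so totals are lower bounds. A count of 0 was read as allowing 3 reads per library. Scripts were tested on simulated data. A few genes that the rule below names are not reported here. Gene positions, promoters and miRNA sequences are from RefSeq, GRCh38.p14.

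The members and lists were chosen with earlier results of these data known. Named genes were the 12 leading protein-coding genes in each direction by the smaller of both differences, and 5 of other biotypes in each direction. Also named were the 5 widest gaps with opposite signs, up to 4 called members per list and direction, and the defining markers. VIM, CDH1, EPCAM, CDX2, MYC, CTNNB1, NAT10 and KIF23 were named too, with the other transcripts that the study followed and THUMPD1. Further list members were named beside them to complete a list, and these and any gene marked so were chosen after their values were seen. Alternatives were other pseudocounts, filters, scalings, single tables and all biotypes.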

Additional observations from a re-analysis of the deposited data

Results flagged for a closer look

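The RIP libraries were compared between the labels in the same way as the Inputs, and the direction was opposite. Genes called higher in the Input labelled SW480 had a median RIP difference of -1.27, and those called higher in the Input labelled DLD-1 one of 1.62. The difference between the Input and RIP contrasts was not tested, since each had 1 library per label.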

How the results depend on the processing

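No named called gene changed its direction under any alternative run. This followed from the rule, since a call already needs a 2-fold difference of the same sign in both tables, and it is not support for the calls. With a pseudocount of 5 the genes called were 288 higher in the Input labelled SW480 and 418 higher in the other, and with a mean of 5 FPKM or more they were 461 and 589, where fewer genes were counted. Over all biotypes they were 1380 and 1957. The share of genes with the same sign was 80.7% with no filter on low values, 87.1% at a mean of 5 or more and 78.8% over all biotypes. The counts stayed within 1.5 times with a pseudocount of 0.1 (1013 and 1554), with no filter (781 and 1319), in the RIP table alone (940 and 1576), in the acRIP table alone (1053 and 1465), after scaling to the sum of nuclear protein-coding FPKM (755 and 1206) and after centring on the median (801 and 1161). Requiring 20 reads in the higher Input, an alternative chosen after seeing the data, gave 729 and 1178. The share of calls that were higher in the Input labelled SW480 ranged from 37.2% to 43.9%. The median of Wnt target genes in the RIP table turned to -0.06 with no filter and to -0.13 at a mean of 5 or more, and that of keratins to 0.20 at a mean of 5 or more. No paired analysis was possible because each label had 1 Input library, and for the same reason no library could be left out.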
